A study of Mus musculus with 18 samples.

Results

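The 10 genes described here encode core and output factors of the circadian clock (Clock, Per1, Per2, Per3, Cry1, Cry2, Nr1d1, Nr1d2, Dbp and Tef). They were taken by symbol from a table of 35441 genes measured in mouse liver by RNA-seq, and all 10 passed the minimum of 100 reads summed over the 18 mice, together with 14533 genes in all. Livers came from 3 mice in each of 6 groups. WT mice and Lipa-/- mice, in which an exon of the lysosomal acid lipase gene was removed with CMV-Cre, received no vector. Treated mice were Lipa-/- mice given rAAV8.hAAT.LIPA in the tail vein at 10 to 12 weeks of age, an adeno-associated vector that carries human LIPA behind a hepatocyte-specific promoter. All mice were males on a C57BL/6N background, kept on chow under a light-dark cycle, and livers were taken 12 or 34 weeks after injection or in age-matched controls, time points that the labels call 3 and 8 months. Of the Lipa-/- mice followed to 34 weeks a single animal lived to the scheduled day, and the rest had been killed earlier at humane endpoints, so at least 2 of the 3 sequenced Lipa-/- mice at 34 weeks died before that day. The hour of the day at which each liver was taken is not given in the sources used here, so a difference between groups and a difference in hour cannot be told apart for any gene below.

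The clock of a liver cell is a loop of transcription factors. CLOCK and its partner BMAL1 (gene Arntl in the table) bind E-box sequences and switch on the Per and Cry genes, whose proteins return to the nucleus and block CLOCK and BMAL1. The same pair switches on Nr1d1 and Nr1d2, which encode REV-ERB repressors that act against ROR activators on shared elements in Arntl, Npas2, Cry1 and Nfil3, and it switches on Dbp, which with Tef and Hlf binds D-box sequences and carries the rhythm to enzymes of lipid, bile acid and drug metabolism. In a mouse liver sampled around the clock, Dbp, Nr1d1 and the Per genes swing widely within a day, while Clock and Tef move less.

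Stretches of the promoters are shown because these elements define how the members regulate one another. The window ran from 250 bases before to 50 bases into each canonical transcript (GRCm39, GENCODE annotation), and capitals mark the element in the strand of the gene.

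Per1, E-box, chr11:68989208-68989267, plus strand: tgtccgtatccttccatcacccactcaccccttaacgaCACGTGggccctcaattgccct
Tef, E-box, chr15:81695450-81695509, plus strand: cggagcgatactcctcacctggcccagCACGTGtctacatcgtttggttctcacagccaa
Cry1, E-box, chr10:85020961-85020990, minus strand: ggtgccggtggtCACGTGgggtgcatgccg
Cry2, E-box variant, chr2:92264548-92264607, minus strand: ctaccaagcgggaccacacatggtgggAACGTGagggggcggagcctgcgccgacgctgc
Nr1d1, E-box variant, chr11:98666199-98666258, minus strand: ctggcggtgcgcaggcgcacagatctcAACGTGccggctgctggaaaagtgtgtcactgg
Per2, D-box, chr1:91387138-91387197, minus strand: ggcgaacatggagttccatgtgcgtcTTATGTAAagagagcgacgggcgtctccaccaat
Per3, D-box, chr4:151129294-151129353, minus strand: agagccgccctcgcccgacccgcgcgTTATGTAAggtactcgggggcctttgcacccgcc
Dbp, ROR element core, chr7:45354266-45354295, plus strand: attggcccgaagTGGGTCAcggtcccgcct
Dbp, ROR element core, chr7:45354311-45354340, plus strand: attggccaaataTAGGTCAgtgtcccgcct

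The E-box CACGTG, searched on both strands like every motif here, was present in 3 of the 10 windows (Per1, Cry1 and Tef) and in 7.82% of 21757 promoters of the same length. The variant CACGTT, which reads AACGTG on the other strand, was found in 4 (Per2, Cry1, Cry2 and Nr1d1), against 5% of all promoters. A D-box (TTATGTAA, TTATGCAA or TTACGTAA) was found in Per2 and, with 2 matches, in Per3, against 1.84% of all promoters. The ROR element core (TAGGTCA or TGGGTCA) matched in 2 places in Dbp, the only member with it, against 6.1%. The cAMP element TGACGTCA was in 0 of the 10 windows and in 2.45% of all promoters, and the windows of Clock and Nr1d2 held none of the motifs searched. GC content was 59.7% to 72% in the windows of all members but Per1 (51.3%), and 54.4% on average in all promoters. Its part in these matches was not tested. The stretches around both Dbp matches overlapped an annotated exon of Car11, and those around the Cry1 matches an exon of Cry1. A match describes letters and not a bound site.

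Levels are given as CPM, read counts relative to the TMM-scaled library size, and compared between genes only as TPM, which is per transcript length. In WT mice at 12 weeks the mean TPM was highest for Nr1d1 (7.18 ± 7.57), Cry1 (5.74 ± 0.24), Tef (5.52 ± 2.20) and Nr1d2 (4.55 ± 2.07), followed by Clock (3.49 ± 1.51) and Cry2 (3.20 ± 1.85). The Per genes and Dbp were lower, at 1.60 ± 0.37 for Per2, 1.58 ± 1.17 for Per1, 0.735 ± 0.0355 for Dbp and 0.107 ± 0.0369 for Per3 (SD, n = 3 each). Neighbours in that order overlapped within 1 SD, except Dbp against Per3. A gene was called where its log2 fold change exceeded 1 in size with an adjusted p below 0.05 (edgeR quasi-likelihood test, Benjamini-Hochberg adjustment over 14533 genes), and only then is it said to have risen or fallen. Nothing in the labels states how the mice of a group are related, and p values measure the spread between these mice.

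**Figure D1:**
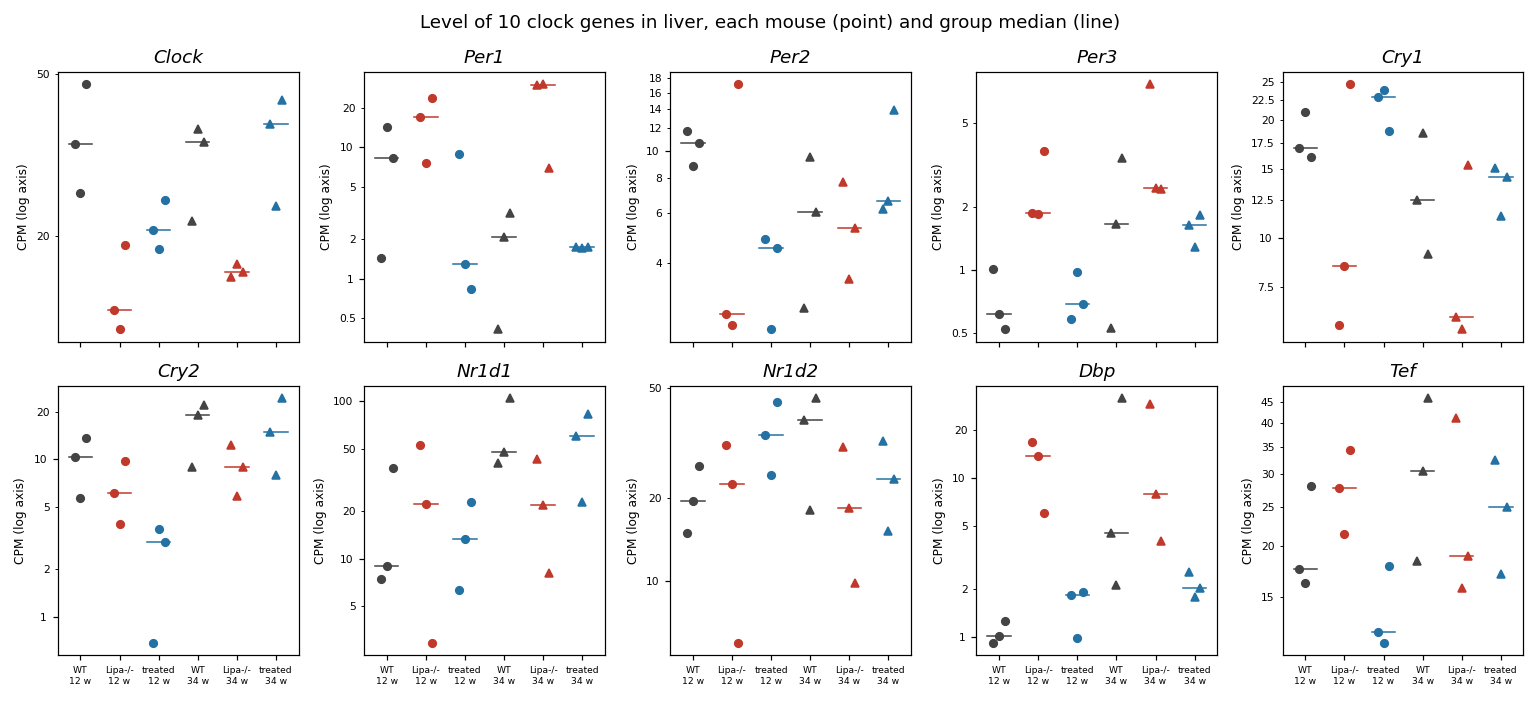
Level of each of the 10 clock genes in the 18 livers, in CPM on a log axis, by group (WT, Lipa-/- and treated mice at 12 and 34 weeks). Points are mice and lines are group medians. Dbp lies between 0.911 and 1.26 CPM in WT mice at 12 weeks and between 6.07 and 17.0 CPM in Lipa-/- mice, and Clock is lower in all Lipa-/- mice than in any WT mouse of the same time point.

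The libraries held 17527824 to 25833059 reads in genes. Murine Lipa was at 202 to 323 CPM in the 6 WT mice and at 16.7 to 37.0 CPM in the other 12 mice, and hLIPA, the human gene of the vector, was at 523 to 2745 CPM in the 6 treated mice, so the groups matched their labels. It was at 0 elsewhere, apart from 1 read in WT mouse 1 and 23 reads (0.906 CPM) in WT mouse 2 at 34 weeks. Summed hepatocyte markers (8 genes, all detected) lay at 53947 to 135004 CPM in all mice. The 8 macrophage markers, by contrast, summed to 48.1 to 222 CPM in WT mice and to 4228 to 9072 CPM in Lipa-/- mice, and all 8 rose in Lipa-/- mice at both time points. In treated mice their sum was 586 to 2435 CPM at 12 weeks and 211 to 494 CPM at 34 weeks. Markers of resident Kupffer cells, the macrophages of the liver itself, did not follow this. At 12 weeks they summed to 85.2 to 202 CPM in WT, 64.8 to 310 CPM in Lipa-/- and 337 to 502 CPM in treated mice. At 34 weeks these sums were 140 to 287, 47.9 to 208 and 127 to 384 CPM. Stellate markers (4 genes) summed to 79.5 to 177 CPM in WT mice, 406 to 538 CPM in Lipa-/- mice at 12 weeks and 687 to 1214 CPM at 34 weeks, and 3 of the 4 rose and 1 fell at both time points. Neutrophil markers (5 genes, Camp and Ly6g at 0 in all WT mice and Ngp at 0 in those of 12 weeks) summed to 0.628 to 5.31 CPM in WT and 98.0 to 1488 CPM in Lipa-/- mice, and 5 and 3 of them rose at 12 and 34 weeks. Cholangiocyte markers went from 6.84 to 18.7 CPM to 27.1 to 72.9 CPM (2 and 4 of 4 rose), T and NK cell markers from 0.733 to 3.58 CPM to 6.83 to 11.7 CPM (4 and 3 of 5 rose), and endothelial markers from 94.0 to 139 CPM to 43.4 to 75.0 CPM (2 of 4 fell at both). Beside these counts, 29.3% and 36.3% of all tested genes were called in Lipa-/- against WT mice at 12 and 34 weeks. Lists of 4 or 5 genes are too short to be set firmly against such a share. In whole liver, fewer cells of a type and less RNA per cell cannot be told apart, and the part of these cells in the clock gene values was not tested.

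Lipa-/- mice were compared with WT mice at 12 weeks to see which clock genes differed in the disease. Dbp and Per3 rose and Clock fell, 3 of the 10 genes, while 29.3% of all tested genes were called. The same 3 genes had groups that did not overlap, against 52.7% of all genes. The median log2 fold change of the 10 genes was 0.20, against 0.02 for all tested genes.

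Dbp, an activator at D-box sequences and a direct output of CLOCK and BMAL1, was at 0.911, 1.00 and 1.26 CPM in WT mice 1, 2 and 3. In Lipa-/- mice 8, 9 and 5 it was at 17.0, 13.7 and 6.07 CPM. Every Lipa-/- mouse was above every WT mouse, and Dbp was 11.5-fold higher (log2 3.53, SE 0.88, 95% interval 1.66 to 5.39, edgeR adjusted p = 0.0045). Clock was at 33.6, 25.5 and 47.3 CPM in WT mice and at 13.1, 11.8 and 19.0 CPM in Lipa-/- mice, again without overlap. It fell by 1.28 on the log2 scale (SE 0.28, interval -1.87 to -0.69, edgeR adjusted p = 0.00157), which is 2.43-fold. Clock was not called under scaling by total counts (-0.83) or by limma on log2(TPM + 0.5) (-0.73, adjusted p = 0.113).

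Per3, the least abundant of the Per genes, was at 1.02, 0.622 and 0.523 CPM in WT mice and at 1.86, 1.86 and 3.69 CPM in Lipa-/- mice (log2 1.77, SE 0.59, edgeR adjusted p = 0.025). All values were low, and the call was lost without WT mouse 2 (log2 1.68, adjusted p = 0.077), WT mouse 3 (1.59, 0.0871) or Lipa-/- mouse 5 (1.36, 0.107). Per1 was at 1.45 to 14.2 CPM in WT mice and 7.64 to 23.6 CPM in Lipa-/- mice, groups that overlapped (log2 1.01, 95% interval -0.72 to 2.73).

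Per2 and Cry1, repressors of CLOCK and BMAL1, divided the Lipa-/- mice at 12 weeks. Per2 was at 11.7, 8.85 and 10.6 CPM in WT mice, at 2.64 and 2.42 CPM in Lipa-/- mice 8 and 9, and at 17.2 CPM in Lipa-/- mouse 5. Cry1 was at 16.9, 21.0 and 16.1 CPM in WT mice, at 5.98 and 8.48 CPM in mice 8 and 9, and at 24.7 CPM in mouse 5. Mouse 5 was thus above the WT range for both genes, and mice 8 and 9 below it. Over all mice neither gene was called (Per2 log2 -0.48, Cry1 log2 -0.46). Without mouse 5, both were called lower, Per2 by -2.04 (edgeR adjusted p = 0.00591) and Cry1 by -1.32 (adjusted p = 0.0156), while Dbp (3.85) and Clock (-1.51) kept their calls. Mouse 5 is the only mouse that carries a study code of its own in the labels, where the other mice of 12 weeks share one code, and the code and the mouse cannot be told apart.

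The REV-ERB genes showed the reverse of Cry1 in the same 3 mice. Nr1d1 was at 52.8 and 22.1 CPM in Lipa-/- mice 8 and 9 and at 2.91 CPM in mouse 5, and Nr1d2 was at 31.1, 22.5 and 5.96 CPM. WT mice had 7.39, 8.95 and 37.9 CPM of Nr1d1 and 14.9, 19.5 and 26.1 CPM of Nr1d2. The intervals of the differences were wide, from -1.26 to 2.30 for Nr1d1 and from -1.10 to 1.05 for Nr1d2 on the log2 scale. For Cry2 and Tef they ran from -1.69 to 0.51 and from -0.38 to 1.24.

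Of the 9 other loop genes tested, 1 rose and 3 fell in Lipa-/- mice at 12 weeks. Arntl, which encodes the partner of CLOCK, was at 19.4, 16.9 and 21.9 CPM in WT mice and 9.59, 8.60 and 10.6 CPM in Lipa-/- mice, and fell by 1.02 on the log2 scale (edgeR adjusted p = 0.0278), a call that 6 of 11 alternative settings did not keep. Npas2, which can replace CLOCK, fell by 1.64 (adjusted p = 0.0148), and Nfil3, a repressor at D-box sequences, fell by 1.07 (adjusted p = 0.0167). Both calls were lost under total-count scaling (-1.19 and -0.59) and without Lipa-/- mouse 8 (-1.50 and -1.03), that of Npas2 also without WT mouse 3 (-1.38) or Lipa-/- mouse 9 (-1.42), and that of Nfil3 without WT mouse 2 (-0.88) or by limma on TPM (-0.57). Bhlhe41, a repressor at E-boxes, went from 0.574 to 1.71 CPM in WT mice to 24.4 to 41.3 CPM in Lipa-/- mice (log2 5.11, adjusted p = 3.22e-05). The related Bhlhe40 was at 39.5 to 95.1 CPM in WT mice and 88.4 to 97.5 CPM in Lipa-/- mice and was not called. Rora, Hlf and the low Ciart were not called either, and Rorb had 0 reads in all 18 mice. The log2 ratio of Dbp to Arntl within a mouse, which no scaling between libraries can move, was -4.42, -4.08 and -4.12 in WT mice and 0.82, 0.67 and -0.80 in Lipa-/- mice 8, 9 and 5.

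**Figure D2:**
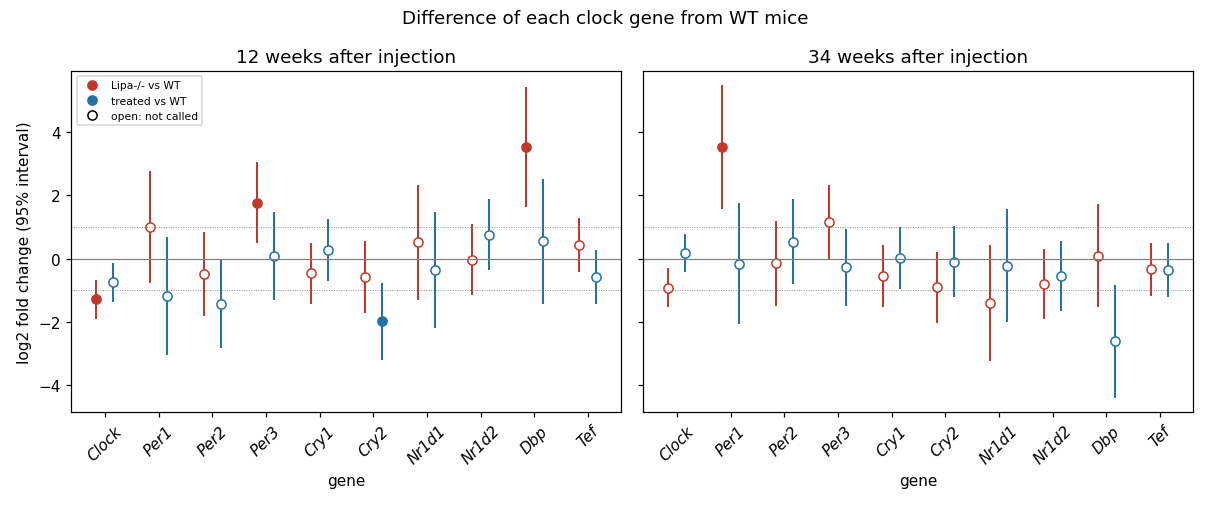
Log2 fold change of the 10 clock genes with 95% intervals for Lipa-/- and for treated mice against WT mice, at 12 weeks (left) and 34 weeks (right). At 12 weeks Dbp (3.53) and Clock (-1.28) stand apart from 0 in Lipa-/- mice, at 34 weeks Per1 (3.53) does, and in treated against WT mice at 34 weeks the intervals of 9 genes include 0. In Lipa-/- mice the intervals of Per3 at 12 weeks (0.52 to 3.03) and Clock at 34 weeks (-1.50 to -0.33) also lie to one side of 0.

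At 34 weeks 1 of the 10 genes rose and 0 fell in Lipa-/- mice, while 36.3% of all tested genes were called. Genotype and early death cannot be told apart in this comparison. The groups did not overlap for 2 genes, Per1 and Clock, against 60.3% of all genes, and the median log2 fold change was -0.44 (all genes -0.03). Per1, the Per gene most directly induced by hormones and second messengers, was at 0.413, 2.09 and 3.19 CPM in WT mice 1, 2 and 3 and at 30.01, 30.3 and 6.94 CPM in Lipa-/- mice 4, 5 and 6. It rose 11.5-fold (log2 3.53, SE 0.91, interval 1.61 to 5.44, edgeR adjusted p = 0.00416). Clock was at 21.8, 36.7 and 34.1 CPM in WT mice and 15.8, 17.0 and 16.3 CPM in Lipa-/- mice. The adjusted p of Clock was 0.0116 (edgeR), but its log2 fold change of -0.92 was inside the threshold, and it was called without WT mouse 1 (-1.11, adjusted p = 0.00446).

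Dbp, in contrast to 12 weeks, ranged widely in both groups at 34 weeks. It was at 4.54, 2.13 and 32.0 CPM in WT mice and 29.5, 7.96 and 4.04 CPM in Lipa-/- mice (log2 0.10, interval -1.50 to 1.70). The high value of WT mouse 3 decided this comparison, since without it Dbp was called higher in Lipa-/- mice (2.06, edgeR adjusted p = 0.022), as was Per3 (1.91, adjusted p = 0.0176). The change of the Dbp difference between the time points was -3.43 (SE 1.15, edgeR adjusted p = 0.305) and that of Per1 was 2.52 (SE 1.18, adjusted p = 0.524). Both had an unadjusted p under 0.05 (0.00843 and 0.0482), but 0 of the 10 genes were called in this interaction by edgeR and 0 by DESeq2, and 0.0619% of all genes were called by edgeR, so the genes called at 12 and at 34 weeks are not shown to differ between the time points.

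The other members had intervals that included 0 at 34 weeks. Nr1d1 was at 40.8, 47.4 and 105 CPM in WT mice and 43.3, 22.1 and 8.08 CPM in Lipa-/- mice (log2 -1.39, interval -3.19 to 0.40). Per2 and Cry1 were at 2.77 to 9.45 and 9.10 to 18.6 CPM in WT mice and at 3.52 to 7.75 and 5.83 to 15.4 CPM in Lipa-/- mice. For Cry2, Nr1d2 and Tef the log2 fold changes were -0.89, -0.80 and -0.33, and Per3 had 1.15 (interval -0.02 to 2.31). Among the other loop genes, 1 rose and 3 fell. Bhlhe41 rose by 5.24 (edgeR adjusted p = 1.73e-05), and Hlf (-1.87, adjusted p = 0.00163) and Nfil3 (-1.19, adjusted p = 0.00734, groups overlapping) were among those that fell. The Nfil3 call was lost in 4 of 11 alternative settings, among them total-count scaling and limma on TPM. It was lost also without WT mouse 1 or Lipa-/- mouse 4, and that of Hlf by limma on TPM. Hlf, the third D-box activator of liver, was at 16.2 to 35.7 CPM in WT mice and 4.09 to 10.7 CPM in Lipa-/- mice.

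Treated mice were compared with WT and with untreated Lipa-/- mice to see where the vector left these genes. Against WT mice at 12 weeks, Cry2 fell and the other 9 genes were not called (all genes 25.5%), with no overlap for 3 genes, Clock, Per2 and Cry2 (all genes 52.5%). The median log2 fold change was -0.45, and 0.06 for all genes. Cry2 was at 10.3, 5.69 and 13.7 CPM in WT mice and at 0.680, 3.64 and 2.99 CPM in treated mice 10, 11 and 12 (log2 -1.98, SE 0.56, interval -3.16 to -0.79, edgeR adjusted p = 0.0142). It was not called without treated mouse 10 (-1.64, adjusted p = 0.0567) or WT mouse 3 (-1.67, adjusted p = 0.0668). Clock was at 20.7, 18.6 and 24.4 CPM in treated mice (log2 -0.74, adjusted p = 0.0449, inside the fold threshold), and Per2 at 4.86, 2.34 and 4.52 CPM (log2 -1.43, adjusted p = 0.0911). Dbp was at 1.85, 0.978 and 1.92 CPM, with an interval of the difference from WT mice of -1.39 to 2.49. Of the other loop genes 3 fell, Npas2 (-2.47, adjusted p = 0.00527), Bhlhe40 (-1.86, adjusted p = 0.00472) and Hlf (-1.22, adjusted p = 0.0335), and 0 rose. With an index of long against short transcripts as a covariate these 3 calls were lost (-1.59, -1.67 and -0.37), and that of Hlf was lost without WT mouse 1 (-1.25) or 3 (-1.01) or treated mouse 10 (-1.14) or 11 (-1.06).

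At 34 weeks 0 of the 10 clock genes and 0 of the 9 other loop genes were called between treated and WT mice (edgeR; all genes 0.22%), and DESeq2 also called 0 of the 10. The groups did not overlap for 0 of the 10 genes, against 8.89% of all genes, and the median log2 fold change was -0.19 (all genes 0.00). The intervals of 9 genes included 0, and the narrowest ran from -0.40 to 0.75 for Clock. Dbp was the exception, at 2.57, 1.79 and 2.03 CPM in treated mice 11, 12 and 9, under WT mice 1 and 3 (log2 -2.61, interval -4.35 to -0.86, unadjusted p = 0.00595, edgeR adjusted p = 0.486). Without WT mouse 3 the difference in Dbp was -0.64. Per1 was at 1.75, 1.71 and 1.75 CPM in treated mice, within the WT range.

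Against untreated Lipa-/- mice, treated mice at 12 weeks had 4 of the 10 genes lower and 0 higher (all genes 41.5%), with no overlap for 4 genes (all genes 59.3%). The median was -0.97, with -0.19 for all genes. Dbp fell by 2.98 (SE 0.87, edgeR adjusted p = 0.00904), with each treated mouse under 2 CPM and each Lipa-/- mouse over 6 CPM. Per1 (-2.19, adjusted p = 0.0437, groups overlapping), Per3 (-1.69, adjusted p = 0.0271) and Cry2 (-1.39, adjusted p = 0.0433) were called too. Each of these 3 calls was lost without Lipa-/- mouse 5, at -1.81, -1.28 and -0.99. They were lost also without treated mouse 10 (Per3 -1.58, Cry2 -1.02), 11 (Per1 -1.76) or 12 (Per1 -1.75, Per3 -1.65, Cry2 -1.56) and Lipa-/- mouse 8 (Per1 -2.14, Cry2 -1.44). Without Lipa-/- mouse 5, Cry1 was called higher in treated mice (1.60, adjusted p = 0.00458). Among the other loop genes Nfil3 rose (1.58), and Bhlhe40 (-2.20) and Bhlhe41 (-4.83) fell.

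At 34 weeks Clock rose and Per1 and Dbp fell in treated against untreated Lipa-/- mice (all genes 31.5%), and 4 genes, these 3 and Per3, did not overlap (all genes 55.9%). Treatment and the early death of untreated Lipa-/- mice cannot be told apart in this comparison. The median log2 fold change was 0.41, with 0.03 for all genes. Per1 was at 1.71 to 1.75 CPM in treated mice and 6.94 to 30.3 CPM in Lipa-/- mice, and fell by 3.69 (SE 0.92, edgeR adjusted p = 0.00389). Clock was at 37.7, 23.6 and 43.3 CPM against 15.8 to 17.0 CPM, and rose by 1.09 (adjusted p = 0.00439). It was not called without treated mouse 9 (0.90, adjusted p = 0.0249) or under scaling by total counts (0.55) or upper quartiles (0.96), or by limma on log2(TPM + 0.5) (0.43, adjusted p = 0.334). Dbp fell by 2.70 (adjusted p = 0.0148), a call that was lost without Lipa-/- mouse 4 (-1.50, adjusted p = 0.159). Of the other loop genes 4 rose (among them Arntl 1.17, Hlf 1.69 and Nfil3 1.28) and 2 fell (Bhlhe40 -1.11, Bhlhe41 -4.64). The Bhlhe40 call was kept in 1 of 6 fits with a mouse left out and was lost with length offsets. Those of Arntl, Hlf and Nfil3 were lost under total-count scaling and by limma on log2(TPM + 0.5). Arntl and Nfil3 were also not called without Lipa-/- mouse 4, nor Arntl without treated mouse 9. The comparisons with WT and with Lipa-/- mice share the treated mice, so their values for a gene are not independent.

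**Figure D3:**
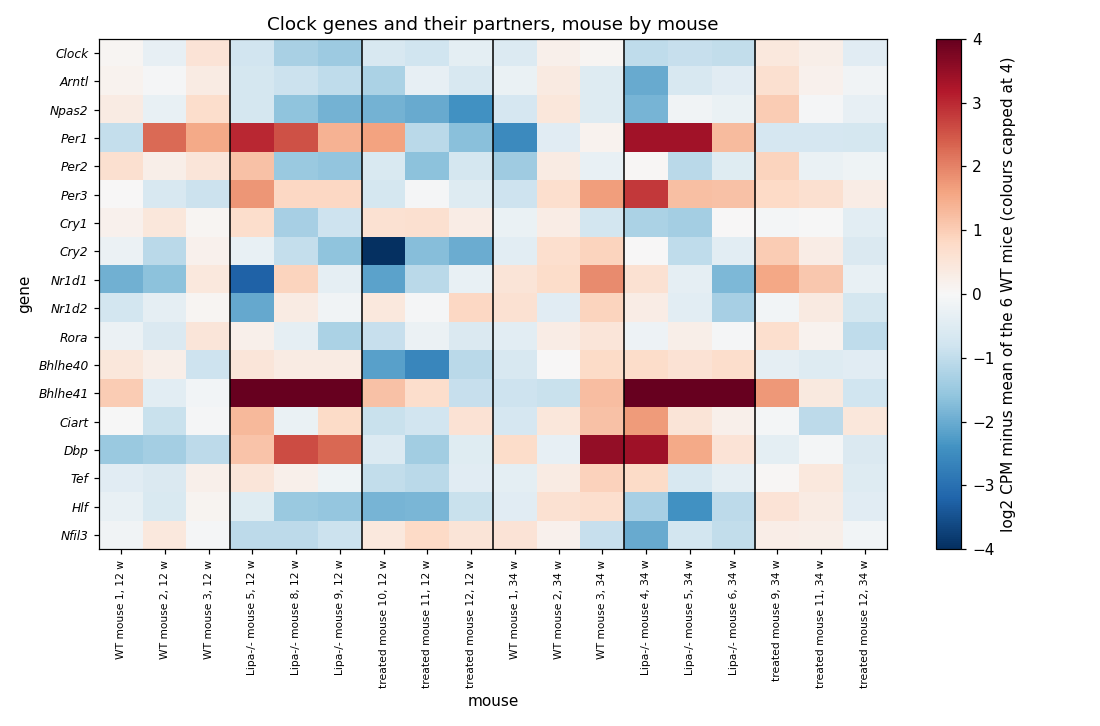
Log2 CPM of the 10 clock genes and 8 other loop genes in each of the 18 mice, shown as the difference from the gene's mean over the 6 WT mice, with colours capped at 4. Rows are genes and columns are mice, ordered by group. Bhlhe41 is high in the 6 Lipa-/- mice, and the columns of Lipa-/- mouse 5 at 12 weeks and WT mouse 3 at 34 weeks differ from the other mice of their groups.

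Between the time points, 0 of the 10 genes were called in WT mice by edgeR (all genes 0.323%) and 0 in Lipa-/- mice (0.495%), while 1 was called in treated mice (32%). In WT mice 2 genes did not overlap (all genes 13%). Dbp was at 0.911 to 1.26 CPM at 12 weeks and 2.13 to 32.0 CPM at 34 weeks (log2 3.61, interval 1.74 to 5.48, unadjusted p = 0.000821, edgeR adjusted p = 0.111), and DESeq2 called it (3.59, adjusted p = 8.59e-04). Without WT mouse 3 at 34 weeks the difference in Dbp was 1.64. Nr1d1 was at 7.39 to 37.9 CPM and then 40.8 to 105 CPM (log2 1.83, interval 0.01 to 3.66, adjusted p = 0.635). Per1 (log2 -2.04) and Per3 (1.39) also had unadjusted p values under 0.05. In Lipa-/- mice the 10 differences between time points lay between -0.51 and 0.76, 0 of them at an unadjusted p under 0.05, and DESeq2 also called 0. The groups did not overlap for 0 of the 10 genes there, against 27.4% of all genes. Time and early death cannot be told apart in the Lipa-/- mice.

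In treated mice Cry2 rose from 0.680 to 3.64 CPM at 12 weeks to 8.01 to 24.6 CPM at 34 weeks (log2 2.66, SE 0.57, edgeR adjusted p = 0.00218), and 5 of the 10 genes did not overlap (all genes 53.8%). Nr1d1 (1.96, adjusted p = 0.0764) and Per2 (1.21, adjusted p = 0.136) were not called, and Npas2 (2.51), Hlf (1.66) and Bhlhe40 (1.38) rose among the other loop genes. The change of the treated-to-WT difference between time points was 1.89 for Cry2 (adjusted p = 0.0818) and -3.16 for Dbp (adjusted p = 0.0751), so 0 of the 10 were called by edgeR, where 18.4% of all genes were, while DESeq2 called both. All mice of 34 weeks share a study code that no mouse of 12 weeks has, so time and code cannot be told apart.

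The members differed in how much mice of one group varied. The pooled SD of log2 CPM within groups was 1.29 for Per1 and 1.29 for Nr1d1, 1.08 for Dbp, 0.85 for Per2, 0.80 for Cry2, 0.75 for Nr1d2, 0.72 for Per3, 0.59 for Cry1, 0.52 for Tef and 0.35 for Clock. Over all tested genes its median was 0.42, so 9 of the 10 members varied more than the median gene and Per1, Nr1d1 and Dbp lay at percentiles 98.6, 98.5 and 97.1. Clock, at percentile 38.3, was the exception. The spread was large in Lipa-/- mice at 12 and 34 weeks (median SD of the members 0.80 and 0.79) and in WT mice at 34 weeks (0.72), and smaller in WT mice at 12 weeks (0.43) and in treated mice (0.47 and 0.46). The medians over all genes in the same groups were 0.33, 0.23, 0.39, 0.29, 0.41 and 0.34.

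Members also varied together within groups. After subtracting the group means, 45 pairs were tested over the 18 mice with an exact permutation test within groups (46656 rearrangements, adjusted over 45 pairs). For 3 pairs both coefficients passed. Nr1d2 and Dbp had r = 0.76 and rho = 0.88 (adjusted permutation p = 0.00579 and 0.000965), Nr1d1 and Nr1d2 r = 0.85 and rho = 0.85 (0.0275 and 0.0116), and Nr1d1 and Dbp r = 0.60 and rho = 0.72 (0.0499 and 0.0383). Without the 2 mice farthest from the median of the first gene, r was 0.74, 0.74 and 0.58. The REV-ERB genes and Dbp, all switched on by CLOCK and BMAL1 in the textbook loop, thus tended to be high and low in the same mice. Among 12599 genes, Dbp ranked 13 by r for Nr1d2 and Nr1d2 ranked 3 for Dbp. Nr1d2 ranked 4 for Nr1d1 and Nr1d1 ranked 3 for Nr1d2. The pair of Nr1d1 and Dbp was the weakest, with r passing narrowly. Dbp ranked 302 for Nr1d1, and Nr1d1 ranked 28 for Dbp.

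Cry1 ran against these genes, although its pairs missed the threshold. With Nr1d2 it had r = -0.82 and rho = -0.72 (adjusted permutation p = 0.0702 and 0.102), with Nr1d1 r = -0.75 and with Dbp r = -0.68 (adjusted p = 0.0702 and 0.0736). Without the 2 mice farthest from the median of Cry1 these r were -0.65, -0.54 and -0.63. Pearson's r alone passed for a further 4 pairs, Clock with Per2 (0.66), Clock with Tef (0.65), Cry2 with Tef (0.65) and Per3 with Cry2 (0.61). Among the 12599 genes whose mean reached 1 CPM, many ranked above these partners. By r, Per2 and Tef ranked 1762 and 1832 for Clock, and Tef and Per3 ranked 2385 and 2717 for Cry2. Seen from the partners, Clock ranked 632 for Per2 and 519 for Tef, and Cry2 ranked 580 for Tef and 416 for Per3. Of the same 12599 genes, Cry1 was the gene most opposite to Nr1d2. The genes most like Nr1d2 were Klhl24 (0.91), Tcp11l2 (0.86) and Nr1d1 (0.85), and the one most like Nr1d1 was Rbl2 (0.92). Fam117b was most like Dbp (0.84), P4ha1 most like Per1 (0.85), Prpf38b most like Per2 (0.91), Cep295 most like Per3 (0.80), Tcf7l1 most like Cry2 (0.98), Rtn1 most like Tef (0.91) and Tln2 most like Clock (0.97). These coefficients are descriptions over 18 mice that share libraries and scaling.

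**Figure D4:**
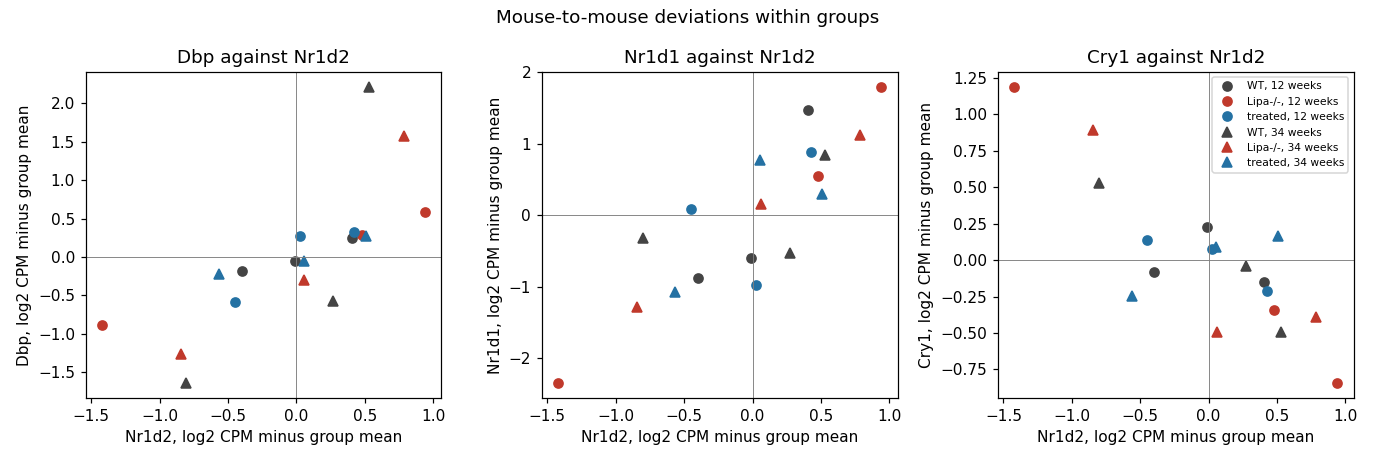
Values of clock genes in each mouse after subtracting the mean of its group, in log2 CPM, for Dbp, Nr1d1 and Cry1 against Nr1d2. Points are the 18 mice, coloured by group. Mice high in Nr1d2 tend to be high in Nr1d1 (r = 0.85) and Dbp (r = 0.76). They tend to be low in Cry1 (r = -0.82), a pair that missed the threshold (adjusted permutation p = 0.0702 for r and 0.102 for rho).

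A further axis of the libraries moved with several members. The level of genes with long transcripts (over 5000 bases, 1280 genes) against those with short transcripts (under 1500 bases, 3735 genes) was computed for each mouse as a difference of median log2 deviations, an index chosen after the data had been seen. It was -1.10 to -1.01 in treated mice at 12 weeks, below all other mice. The others ranged from -0.56 to 0.52 in WT, from -0.51 to 0.31 in Lipa-/- mice at 12 weeks, and from -0.78 to 0.54 in WT, 0.48 to 0.86 in Lipa-/- and -0.19 to 1.05 in treated mice at 34 weeks. Clock has the longest transcript of the members (mean 9192 bases) and Dbp the shortest (1320 bases). By these limits Clock and Per3 (mean 5004 bases) were themselves among the long genes, and Dbp among the short ones. A positive r of Clock or Per3 with the index is thus partly built into it. Within groups Clock had r = 0.89 and rho = 0.75 with the index (adjusted permutation p = 0.00622 and 0.0304 over 10 genes), Cry2 r = 0.74 and rho = 0.80 (0.00107 and 0.000643) and Tef r = 0.69 and rho = 0.73 (0.022 and 0.0304). Without the 2 mice farthest from the median of the index, r was 0.87, 0.69 and 0.68. For Per2 (r = 0.66, rho = 0.60) and Per3 (r = 0.63, rho = 0.57) r alone passed. The pairs of members that passed by r alone above all lie among Clock, Cry2, Tef, Per2 and Per3. For Nr1d1, Nr1d2, Cry1, Dbp and Per1 r lay between -0.07 and 0.33 and did not pass. The share of all genes that follow the index as closely is not given here. These coefficients are therefore not shown to be particular to clock genes.

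With the index as a covariate in the edgeR fit, the clock genes of Lipa-/- mice kept their calls. At 12 weeks Clock (-1.22, edgeR adjusted p = 1.02e-05), Per3 (1.76, 0.00819) and Dbp (3.67, 0.00322) were called (all genes 30.8%), and at 34 weeks Per1 (3.31, 0.00708), Clock (-1.22, 1.35e-05) and Cry2 (-1.46, 0.00186) were (all genes 36.3%). In treated against WT mice at 12 weeks 0 of the 10 were called (all genes 3.54%), with Cry2 at -0.68 and Clock at -0.04, and at 34 weeks again 0 (all genes 0.317%). Against Lipa-/- mice at 12 weeks only Clock was called, 1.17 higher (adjusted p = 1.75e-04; all genes 29.8%), and Dbp was at -2.31 (adjusted p = 0.0758). At 34 weeks Clock (1.22), Cry2 (1.01), Per1 (-3.50) and Dbp (-2.38) were called (all genes 33.1%). Between the time points in treated mice 0 of the 10 and 0% of all genes were called, Cry2 being at 0.85. Since the treated mice at 12 weeks lie below all other mice, their group and the index cannot be fully told apart, and the part of the index in the clock gene values was not tested.

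**Figure D5:**
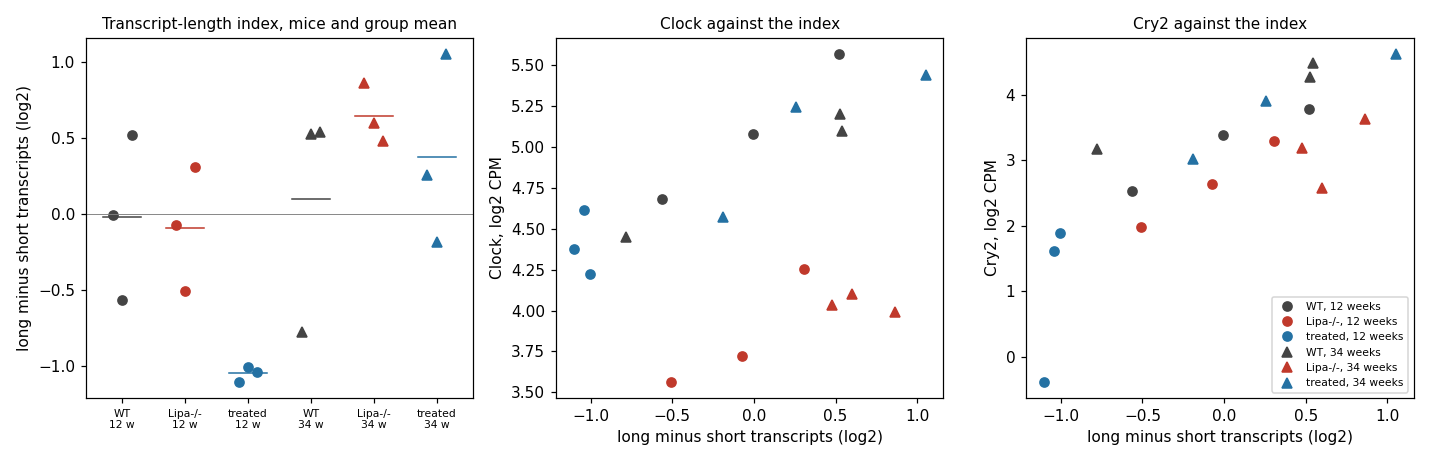
Level of long against short transcripts in each mouse (log2 difference of medians, points, with group means as lines), and the log2 CPM of Clock and of Cry2 against it. Treated mice at 12 weeks lie between -1.10 and -1.01, below the other 15 mice. Clock, itself among the long genes, follows the index within groups (r = 0.89).

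Genes around the loop were grouped into lists, whose counts stand beside 29.3% and 36.3% of all genes called in Lipa-/- mice at 12 and 34 weeks, and 25.5% and 0.22% in treated against WT mice. Of 19 tested kinases, ubiquitin ligases and cofactors that act on clock proteins, 1 rose and 1 fell in Lipa-/- mice at 12 weeks and 1 rose and 2 fell at 34 weeks. Csnk1e, a kinase of PER proteins, rose at both (2.26 and 2.48), and Prkaa2, a subunit of the kinase AMPK, fell at both (-1.46 and -1.46). In treated mice at 12 weeks 1 rose and 4 fell, among them Csnk1d (-1.72) and Gsk3b (-1.55), and at 34 weeks 0 were called. Of 19 tested output genes, 3 rose and 6 fell in Lipa-/- mice at 12 weeks and 0 rose and 8 fell at 34 weeks. Elovl3, an elongase of very long fatty acids with a strong daily rhythm, went from 789 to 1005 CPM in WT mice to 0.116 to 0.426 CPM in Lipa-/- mice at 12 weeks, and from 349 to 472 CPM to 0.155 to 0.504 CPM at 34 weeks. It was at 265 to 832 CPM in the 6 treated mice. Cyp2b10, a drug-metabolising P450, was at 2.17 to 6.23 CPM in WT mice at 34 weeks and had 0 reads in the 3 Lipa-/- mice, and Usp2, a deubiquitinase, rose at 12 weeks (1.81), so not all outputs moved one way. In treated against WT mice 2 outputs rose and 5 fell at 12 weeks and 0 were called at 34 weeks. Cyp2b10 was at 1.18, 1.67 and 2.98 CPM in WT mice at 12 weeks and had 0, 0 and 1 read in treated mice.

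Lists of genes that respond to stimuli, feeding, hormones and temperature were counted in the same way. The 10 immediate early genes, which respond to stimuli within minutes, summed to 235, 1570 and 209 CPM in WT mice 1, 2 and 3 at 12 weeks, so WT mouse 2 stood apart. Lipa-/- mice at 12 weeks had 318 to 514 CPM, above WT mice 1 and 3, and 0 of the 10 genes were called, but 3 were called higher without WT mouse 2. The share of all genes called without WT mouse 2 is not given here, so this count cannot be set against it. At 34 weeks the sum was 159 to 201 CPM in WT and 425 to 765 CPM in Lipa-/- mice, and 7 rose, with Fosb at 5.93, Atf3 at 4.61, Fos at 4.28 and Egr1 at 3.39. In the interaction of genotype with time 0 of the 10 were called (all genes 0.0619%). Treated mice at 12 weeks had 125 to 162 CPM, and 6 of the genes fell against WT mice (Egr1 -4.39, Fos -3.52, the latter with groups overlapping). Without WT mouse 2, 2 were called lower and 1 higher, again with no share of all genes to set beside them. Of 5 genes of the fed state, 3 fell at 12 weeks and 5 at 34 weeks in Lipa-/- mice (Fasn -1.76 and -2.96, Acly -2.11 and -2.39), and 3 fell in treated mice at 12 weeks. Of 7 genes of the fasted state, 0 rose and 1 fell at 12 weeks and 1 rose and 1 fell at 34 weeks (Igfbp1 4.30). Glucocorticoid-responsive genes (8 tested) were mixed, with 3 rising and 2 falling at 12 weeks and 4 rising and 1 falling at 34 weeks, led by Mt2 (7.43 and 7.81) and Sgk1 (2.60 and 2.60). Of 8 temperature-responsive genes, 2 rose and 4 fell at 12 weeks, with Rbm3, an RNA-binding protein induced by cold, at 2.77 and the chaperone gene Hspa1b at -4.08, and 2 rose and 1 fell at 34 weeks. At 12 weeks the 8 genes summed to 1633, 5346 and 1872 CPM in WT mice 1, 2 and 3 and to 1649 to 1813 CPM in Lipa-/- mice. WT mouse 2 thus stood apart in this list too, although the groups of Rbm3 and Hspa1b did not overlap. In treated against WT mice at 34 weeks 0 genes of these lists were called. With the transcript-length index as a covariate, 3.54% of all genes were called in treated against WT mice at 12 weeks. In that fit 0 of the clock modifiers were called, 2 outputs lower, 3 immediate early genes lower and 0 genes of the fed state. The part of feeding, hormones and stress in the clock gene values was not tested.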

How the data were processed

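Liver RNA of 18 mice was analysed in 6 groups of 3. The estimated counts per gene were made by the authors, who assigned paired-end reads to GRCm39 transcripts with Salmon and summed them with tximport, and 19.4% of them are not whole numbers. The TPM values and the mean transcript lengths in bases were deposited from the same step. The authors' own table of DESeq2 comparisons (DESeq2 1.40.1 and R 4.3.0 per the labels) holds fold changes and p values and was not used.

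Counts were rounded, scaled with TMM factors (0.587 to 1.69) and fitted with edgeR 4.0.16 in R 4.3.3 as 6 group means, over 14533 genes with more than 100 reads summed over all mice. Of 11 comparisons, 6 were made at one time point, 3 across time and 2 as interactions. Log2 CPM used a prior count of 2. Where a library has no reads, up to 3 reads remain possible (0.0946 to 0.291 CPM), a limit that covers counting error only. For 3 against 3 mice the smallest exact permutation p is 0.1. The read total sets the precision of low genes such as Per3 and Dbp. Estimated counts of Nr1d1 and Dbp, whose exons overlap Thra and Sphk2 on the opposite strand, were not whole in 18 of 18 mice, and reads of such pairs can be split only as well as strand was used.

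The members and gene lists were chosen with earlier results of these data known. All members and the other loop genes are named, of the other lists up to 4 called genes with the largest change per comparison with WT mice, and for patterns the 3 genes with the highest and lowest r, of which the first are given, and some genes that this rule takes are not reported here. Alternative fits used DESeq2 1.42.0, length offsets, upper-quartile or total-count scaling, no filter, filterByExpr, a fit of the compared groups only, other thresholds, limma 3.58.1 on log2(TPM + 0.5), the mouse number as a block, and each mouse left out. The transcript-length index was added after seeing the data. Scripts were tested on simulated data. Mouse numbers shared between time points belong to different animals, and deviations of same-numbered mice correlated at 0.08, -0.24 and 0.46 (WT) and -0.08 and -0.25 (treated), so they were not treated as pairs.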

Additional observations from a re-analysis of the deposited data

Results flagged for a closer look

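Npas2, which can replace CLOCK as the partner of BMAL1, had a treated-to-WT difference that changed between the time points by 2.95 on the log2 scale (edgeR interaction test, adjusted p = 0.0245). It was at 6.64, 4.26 and 8.63 CPM in WT mice and 1.36, 1.25 and 0.920 CPM in treated mice at 12 weeks, and at 3.30, 7.33 and 3.70 CPM and 5.08, 4.16 and 10.8 CPM at 34 weeks. The call was lost without WT mouse 1 at 34 weeks (2.75, adjusted p = 0.0647), treated mouse 9 at 34 weeks (2.41, 0.0732), WT mouse 1 at 12 weeks (2.93, 0.0509) or WT mouse 3 at 12 weeks (2.69, 0.0752), in the fit of the compared groups only (3.03, 0.0553), under an adjusted p threshold of 0.01, and with the transcript-length index as a covariate (1.78, 0.268). The part of transcript length in this value was not tested further.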

How the results depend on the processing

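Dbp in Lipa-/- mice at 12 weeks (3.03 to 3.99) and Per1 in Lipa-/- mice at 34 weeks (3.01 to 4.14) were called under all 11 alternatives and with each of 6 mice left out, and no called gene result changed sign under any alternative. Counts of the 10 clock genes called moved by over 1.5 times as follows. In Lipa-/- against WT mice, limma on TPM gave 1 instead of 3 at 12 weeks, and total-count scaling and the adjusted p alone gave 2 and the length index as a covariate 3, instead of 1, at 34 weeks. In treated against WT mice at 12 weeks (1) total-count scaling gave 3, the fit of the compared groups only, the adjusted p alone and limma 2, and an adjusted p under 0.01 and the covariate 0. In treated against Lipa-/- mice at 12 weeks (4) the fit of the compared groups gave 2, and an adjusted p under 0.01 and the covariate 1. Between time points DESeq2 and no filter gave 1 instead of 0 in WT mice (Dbp). In treated mice (1) length offsets, no filter and the adjusted p alone gave 2, the fit of the compared groups 3, total-count scaling and limma 5 and the covariate 0. In the interaction of treated mice (0) DESeq2 gave 2 and total-count scaling 1. Leaving out single mice gave counts of 2 to 4 and 1 to 3 (Lipa-/- against WT mice at 12 and 34 weeks), 0 to 1 and 0 to 0 (treated against WT mice), 2 to 5 and 2 to 4 (treated against Lipa-/- mice), 0 to 0 in WT and Lipa-/- mice and 1 to 3 in treated mice between time points, and 0 to 0 and 0 to 2 in the interactions. The share of all genes called under each setting is not given beside these counts. They show how the calls of the members moved, not whether clock genes moved more than other genes. The cause of these moves was not tested.

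With the replicate block the count was 0 in WT mice and 1 in treated mice between time points, where Cry2 was at 1.78 (adjusted p = 0.0367), and calls of Hlf (1.34) and Bhlhe40 (1.40) were lost. Total-count scaling moved the all-gene median log2 fold change by -0.87 to 0.63, and the percentage of higher genes among those called from 69.1% to 87.1% and 56.6% to 81.8% (Lipa-/- against WT mice at 12 and 34 weeks), 53.1% to 24.4% and 59.4% to 70.8% (treated against WT), 39.0% to 8.93% and 40.8% to 18.5% (treated against Lipa-/-), 6.94% to 18.2% and 54.7% to 87.8% (between time points in Lipa-/- and treated mice) and 46.6% to 81.3% (interaction of treated mice). Of 172 results not called, 289 of 3180 alternative values had the other sign and 89 were called, 0 of them both.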
